A study of Mus musculus with 12 samples.

Results

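Endothelins are short vasoactive peptides, and 7 mouse genes of the system were examined in heart ventricle: the ligand genes Edn1, Edn2 and Edn3, the receptor genes Ednra and Ednrb, and the converting enzyme genes Ece1 and Ece2. All 7 were found by their symbols among the 54949 features of a bulk RNA-seq count table. The family was chosen by the fold change of Edn3 between the 2 groups of libraries described here, so every comparison of those groups for these 7 genes is a description. Their folds, errors and place on either side of the threshold of the fit over all genes are printed, with no p, and nothing is concluded from them. Expression was measured in 12 libraries of poly-A-selected RNA from ventricle, with the atria removed, of wild-type male C57BL/6N mice, 6 libraries in each group. Whether a library stands for its own mouse is not stated in the labels, so p-values here reflect only how these samples spread, which may be technical.

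The design describes mice that entered at 8 weeks of age and were followed for 5 weeks. To model HFpEF, heart failure in which the ejection fraction is preserved, mice of 1 group ate a high-fat diet and drank water with 0.5 g/L L-NAME (N-nitro-L-arginine methyl ester), which blocks nitric oxide synthases. The other group received normal diet and water. The labels contradict each other on which libraries belong to which group. Libraries named con-1 to con-6 carry HFpEF titles and the high-fat, L-NAME treatment, and libraries named HF-1 to HF-6 carry control titles and the normal diet. Groups here take the library names, con-named and HF-named, and no direction below can be read as treated against untreated. The design text also counts 5 ventricular samples per group for bulk sequencing, whereas 6 are labelled.

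An endothelin gene encodes a long precursor that is trimmed by furin-type proteases to big endothelin and then cut by an endothelin-converting enzyme to the active peptide. Endothelin 1 and endothelin 2 bind the type A receptor (Ednra) more tightly than endothelin 3 does, whereas the type B receptor (Ednrb) binds all of them about equally. In blood vessels the type A receptor on smooth muscle mediates constriction, and the type B receptor on endothelium triggers release of nitric oxide and prostacyclin and clears endothelin 1 from the circulation.

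The stretches that encode the 3 mature peptides show how close the ligands are, and are printed because reads from one ligand could in principle be counted for another. They are read 5′ to 3′ from GENCODE M21 transcripts on GRCm38, and capitals mark bases that differ from Edn1. Each lies in exon 2 on the + strand, at chr13:42303649-42303711 for Edn1, chr4:120161951-120162013 for Edn2 and chr2:174761749-174761811 for Edn3.
Edn1: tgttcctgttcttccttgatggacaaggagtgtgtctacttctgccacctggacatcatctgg
Edn2: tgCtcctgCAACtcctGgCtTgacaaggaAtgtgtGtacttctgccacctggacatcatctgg
Edn3: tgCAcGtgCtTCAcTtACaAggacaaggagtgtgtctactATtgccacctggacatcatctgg

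Over these 63 bases Edn2 differed from Edn1 at 10 positions and Edn3 at 13, and the encoded peptides of 21 residues differed from endothelin 1 at 3 and 6 residues. The last 21 bases are shared by Edn1 and Edn3. That stretch was also the longest identical run between their transcripts, against 29 bases between Edn1 and Edn2, 15 between Ednra and Ednrb and 17 between Ece1 and Ece2. The deposited files give no read lengths, and whether reads were shared between members was not tested.

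On GRCm38 the ligand genes lie at chr13:42301476-42307990 (Edn1), chr4:120161206-120167360 (Edn2) and chr2:174760619-174784042 (Edn3), all on the + strand. The receptor genes lie on the - strand, Ednra at chr8:77663031-77724464 and Ednrb at chr14:103814625-103844402. The enzyme genes lie at chr4:137862237-137965229 (Ece1) and chr16:20629828-20646485 (Ece2), on the + strand. Ece2 shares 2937 exon bases, 57.5% of its exon length, with Gm49333 on the same strand, so the count of Ece2 is uncertain. Gm49333 had 0 counts over the 12 libraries. Ednra shares 1.7% of its exon bases with 4933431K23Rik and Edn1 shares 1.6% with Gm47118, both on the opposite strand, and no step that marks strand is named in the library protocol.

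The libraries held 14443186 to 22048689 counts each. A count of 3 in a library, used as the detection floor, corresponded to 0.142 to 0.217 CPM (counts per 1000000, scaled by the TMM-adjusted library size). Intervals and floors cover counting error only. Cardiomyocyte markers summed to 63128 to 72304 CPM over all libraries, and the ventricular light chain Myl2 averaged 6743 ± 436 CPM in con-named and 5712 ± 256 CPM in HF-named libraries (SD, n = 6 each). The atrial genes Myl7 and Sln averaged under 1 CPM in both groups, but unevenly. Myl7 had 6 counts in con-named and 50 in HF-named libraries, and Sln 1 and 20. Their highest values, 1.79 and 1.06 CPM, lay in HF-named libraries. The summed atrial markers spanned 107 to 174 CPM in con-named and 64 to 249 CPM in HF-named libraries. On average Nppa was the largest part of that sum, at 87.7 ± 23.3 and 76.3 ± 65.7 CPM, followed by Kcna5 at 30.0 and 28.2 CPM. HF-named libraries 1 (249 CPM) and 3 (173 CPM) and con-named library 2 (174 CPM) were the highest of their groups. The part of atrial tissue in any difference was not tested. With edgeR's quasi-likelihood test at an adjusted p of 0.05, 2016 of 15114 tested genes were called between HF-named and con-named libraries, 13.3% of those tested, with 1252 (8.28%) higher and 764 (5.05%) lower in HF-named libraries. Scaling by library totals instead of TMM gave 483 higher and 2582 lower genes, and moved the median over all genes from -0.01 to -0.13.

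Of the 7 endothelin genes, 5 passed the filter on low counts and were tested, and Edn2 and Ece2 did not. Edn3 and Ednra were higher and Ece1 was lower in HF-named libraries at the threshold, so 3 of the 5 tested members were called against 13.3% of all genes. Because the family was selected on this contrast, nothing is read from that share. The median log2 fold change of the 5 tested members was 0.04, against -0.01 over all tested genes. Ednra and Ece1 had no overlap between the groups in CPM, which held for 810 genes, 5.36% of those tested.

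**Figure D1:**
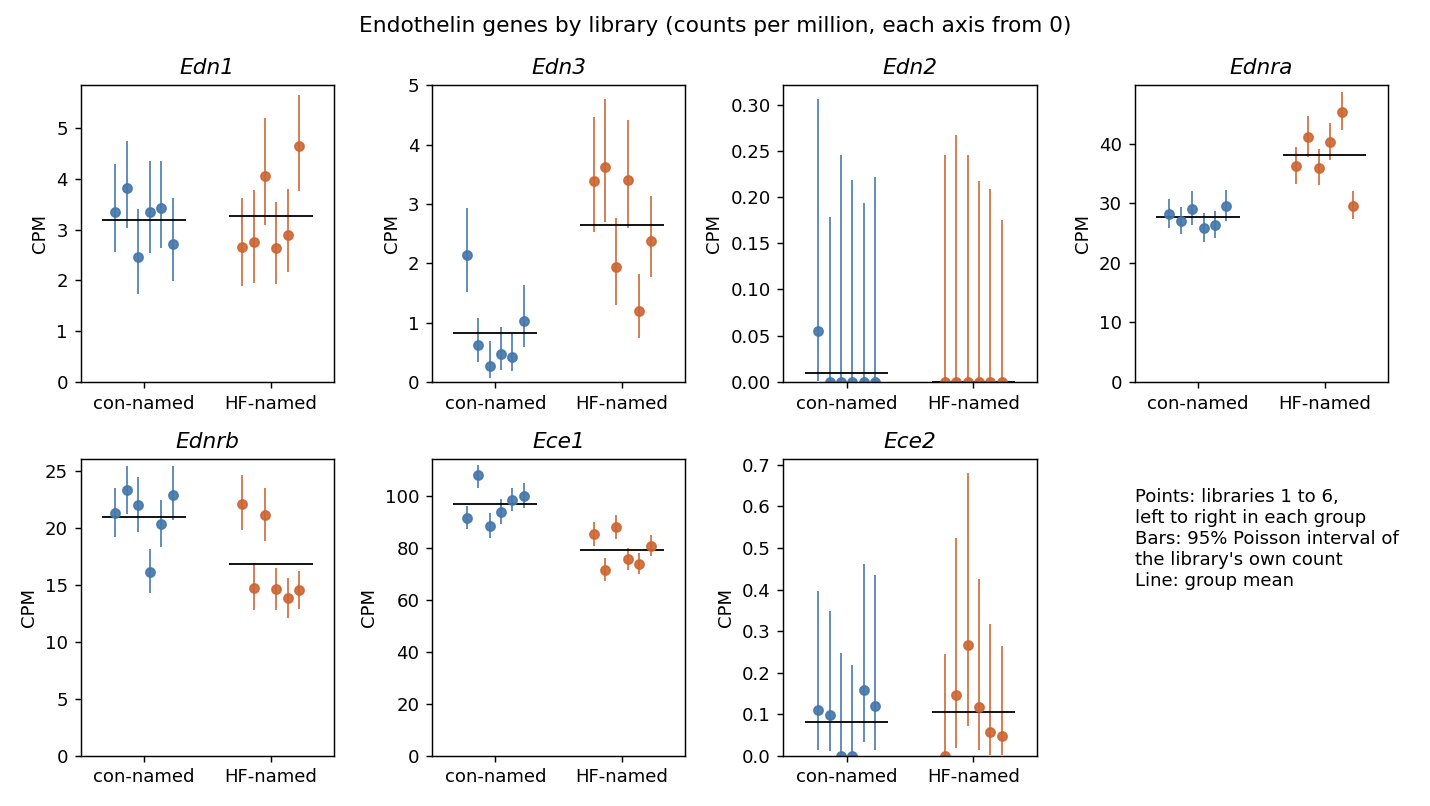
Level of each endothelin gene in CPM (y axis, from 0, on its own scale) in the 6 con-named and 6 HF-named libraries. Points are libraries 1 to 6 from left to right, bars are exact 95% Poisson intervals of the library's own count and horizontal lines are group means. Edn3 is low and scattered in both groups, Ednra and Ece1 separate in opposite directions, and Edn2 and Ece2 sit at or near 0.

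Edn1 encodes endothelin 1, the main endothelin of vascular endothelium. Its counts ranged from 37 to 79 in con-named libraries (median 59) and from 38 to 98 in HF-named libraries (median 48). In CPM the con-named libraries read 3.35, 3.82, 2.47, 3.36, 3.42 and 2.71, and the HF-named libraries 2.66, 2.75, 4.06, 2.65, 2.89 and 4.65. The groups overlapped almost completely, with HF-named libraries 3 and 6 above every con-named library. The means were 3.19 ± 0.502 and 3.28 ± 0.859 CPM (SD, n = 6 each), a log2 difference of 0.04 (SE 0.17), and Edn1 did not pass the threshold.

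Edn3 encodes endothelin 3, which with the type B receptor guides neural crest cells that form melanocytes and enteric neurons. It was counted 39, 13, 4, 8, 8 and 17 times in con-named libraries 1 to 6, and 51, 50, 29, 58, 21 and 50 times in HF-named libraries 1 to 6. In CPM the con-named values were 2.14, 0.629, 0.267, 0.472, 0.421 and 1.02, and the HF-named values 3.39, 3.62, 1.93, 3.41, 1.19 and 2.37. Every library lay above the floor of 3 counts, but the lowest, con-named library 3 with 4 counts, had a 95% interval of 0.0727 to 0.683 CPM. HF-named libraries 1, 2, 4 and 6 lay above every con-named library. Con-named library 1 lay among the HF-named values, above HF-named libraries 3 and 5, and the other 5 con-named libraries lay below every HF-named library.

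The Edn3 means were 0.826 ± 0.695 CPM in con-named and 2.65 ± 0.98 CPM in HF-named libraries (SD, n = 6 each), which is a log2 fold change of 1.65 (SE 0.39), or 3.14-fold higher in HF-named libraries. That was the 4th highest rise among the 15114 tested genes, at a level that ranked only 12679th. The coefficient of variation was 84.1% in con-named and 36.9% in HF-named libraries. Without con-named library 1 the log2 fold change was 2.20, and over all fits that left out 1 library it ranged from 1.49 to 2.20. On the log2(FPKM + 1) scale, which compresses low genes, it was 0.42. The authors' deposited table lists a log2 fold change of 1.67 for Edn3.

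Markers of cells that may produce or answer endothelin 3 were read in the same libraries. Of 9 melanocyte markers 4 were tested and 1 was called, against 13.3% of all genes. It was Dct, a pigment enzyme, at 1.31 ± 0.504 CPM in con-named and 2.86 ± 0.594 CPM in HF-named libraries (log2 1.10, SE 0.22, edgeR adjusted p = 0.00496). The other tested markers were not called, with log2 fold changes of 0.03 (Mitf), -0.17 (Pmel) and -0.25 (Sox10). The pigment genes Tyr, Tyrp1 and Oca2 were at 0 in all 12 libraries, and Mlana and Slc45a2 had 8 and 7 counts in all. The summed melanocyte markers, most of them Mitf, ranged from 59.7 to 72.8 CPM in con-named and from 60.8 to 76.0 CPM in HF-named libraries. Of 7 tested Schwann and glial markers 1 was called, against the same 13.3%. It was the potassium channel Kcna1 (log2 1.0, adjusted p = 0.0107), whereas the median of the list was 0.02. The list's sum spanned 23.2 to 33.5 CPM and 22.3 to 30.8 CPM. Of 6 endocardial markers 4 were lower in HF-named libraries, against 5.05% of all genes, with sums of 57.8 to 89.8 CPM against 41.9 to 60.3 CPM. The most abundant, the natriuretic peptide receptor Npr3, read -0.68 (edgeR adjusted p = 0.0119), and Nfatc1, an endocardial transcription factor, did not pass (adjusted p = 0.996). The part of any of these cells in the Edn3 difference was not tested. In bulk tissue, a change in the number of cells of a type and a change in RNA per cell cannot be told apart.

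Edn2 encodes endothelin 2, a ligand best known from gut and ovary. It had 1 count in con-named library 1 and none in the other 11 libraries. The floor of 3 counts allows up to 0.142 to 0.217 CPM per library, so Edn2 was not detectable at this depth, and no fold change is given.

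Edn1 and Edn3 together give the ligand transcripts that could be measured. Per length, in FPKM (counts per kilobase of exon, scaled to the library total), Edn3 made up 5.32% to 24.5% of the summed ligands in con-named libraries (median 7.34%) and 17.6% to 40.6% in HF-named libraries (median 30.4%). Con-named library 1, at 24.5%, lay above HF-named libraries 3, 5 and 6. The means were 11.2% ± 7.7 and 29.8% ± 11.4 (SD, n = 6 each). Edn1 was the more abundant ligand in every library, 3.01 to 17.8 times Edn3 in con-named and 1.46 to 4.67 times in HF-named libraries. The sum of the ligands was 1.77 ± 0.338 FPKM and 2.10 ± 0.395 FPKM, with overlapping ranges of 1.25 to 2.12 and 1.48 to 2.63.

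Ednra encodes the type A receptor. Its counts ranged from 436 to 559 in con-named and from 540 to 799 in HF-named libraries. In CPM the con-named libraries read 28.2, 27.0, 29.1, 25.9, 26.3 and 29.6, and the HF-named libraries 36.3, 41.1, 35.9, 40.3, 45.3 and 29.6. HF-named libraries 1 to 5 stood clear of the con-named group, and HF-named library 6 was only just above con-named library 6. The means were 27.7 ± 1.5 and 38.1 ± 5.4 CPM (SD, n = 6 each), 1.38-fold higher in HF-named libraries (log2 0.46, SE 0.08). On the authors' FPKM scale, which uses plain library totals, HF-named library 6 (5.18 FPKM) fell inside the con-named range of 4.84 to 5.48, so the separation of the groups depends on the scaling. On the log2(FPKM + 1) scale the difference was 0.29.

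The type A receptor is a feature of smooth muscle and pericytes, so mural markers were read beside Ednra. The 10 mural markers summed to 1288 to 1464 CPM in con-named and to 1475 to 1677 CPM in HF-named libraries. The groups stood apart only narrowly on this TMM scale, and with plain library totals the sums overlap, so the separation depends on the scaling. Of 9 tested genes, 0 passed edgeR's adjusted threshold and 3 had an unadjusted p under 0.05, all higher. The most abundant, the pericyte gene Rgs5, read 625 ± 65.2 and 718 ± 22.6 CPM (log2 0.20, edgeR adjusted p = 0.0504). It passed with limma-voom (0.0393) and DESeq2 (0.0218), and without con-named library 2 (0.0422) or 6 (0.0321). With edgeR it read 0.09 with library totals (adjusted p = 0.375) and 0.19 without the filter (0.138). Abcc9, a channel subunit on the mural list, averaged 359 and 386 CPM (log2 0.11, edgeR adjusted p = 0.414). Rgs5 and Abcc9 made up most of the mural sum. How much of their RNA came from mural cells cannot be told in bulk tissue, so the sum is no measure of mural content. The other tested markers read -0.05 (Kcnj8), -0.03 (Pdgfrb), 0.01 (Cspg4), 0.11 (Notch3), 0.17 (Cnn1), 0.34 (Myh11) and 0.48 (Acta2). With DESeq2, 2 mural genes were called higher and with limma-voom 1. Leaving out con-named library 5 gave 2, and leaving out con-named library 2 or 6 or HF-named library 3 or 6 gave 1. Cardiomyocytes also carry the receptor, and their marker sums overlapped. The part of mural cells in the Ednra difference was not tested.

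Ednrb encodes the type B receptor. Its counts ranged from 273 to 481 in con-named and from 203 to 333 in HF-named libraries. In CPM the con-named libraries read 21.3, 23.3, 22, 16.1, 20.3 and 22.9, and the HF-named libraries 22.1, 14.7, 21.1, 14.6, 13.8 and 14.5. HF-named libraries 2, 4, 5 and 6 lay below every con-named library, while HF-named libraries 1 and 3 lay within the con-named range. The means were 21 ± 2.62 and 16.8 ± 3.75 CPM (SD, n = 6 each), a log2 difference of -0.33 (SE 0.12) that did not pass the threshold. Its side of that threshold turned when con-named library 4 (-0.39), HF-named library 1 (-0.42) or HF-named library 3 (-0.40) was left out, and with library totals (-0.43), which is again only a description.

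The balance of the 2 receptors is given per length within each library. The ratio of Ednra to Ednrb in FPKM was 1.03, 0.905, 1.03, 1.25, 1.01 and 1.0 in con-named libraries 1 to 6, and 1.28, 2.18, 1.33, 2.15, 2.56 and 1.59 in HF-named libraries 1 to 6. Con-named libraries lay around equal levels, apart from library 4, and every HF-named library lay above all of them, HF-named library 1 by the smallest margin. Ednra was 50.8% ± 2.63 of the summed receptors in con-named and 63.9% ± 6.62 in HF-named libraries (SD, n = 6 each). The sum itself was 10.4 ± 0.899 and 10.5 ± 1.21 FPKM. This ratio does not depend on library scaling, since both genes come from 1 library.

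**Figure D2:**
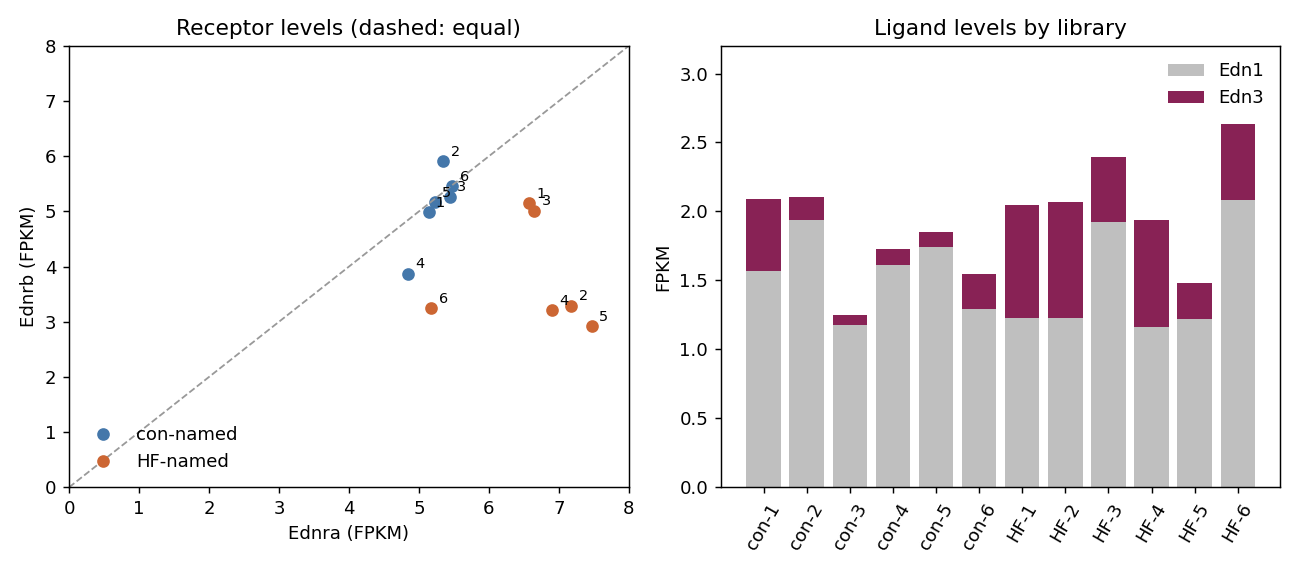
Left, Ednrb against Ednra in FPKM for each library, labelled by its number, with a dashed line of equal levels. Right, Edn1 and Edn3 in FPKM stacked for each library. Con-named libraries lie near the line of equal receptor levels, apart from library 4 at a ratio of 1.25. HF-named libraries lie below the line with ratios of 1.28 to 2.56. Edn3 takes 17.6% to 40.6% of the ligands in HF-named libraries.

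Ece1 encodes the main endothelin-converting enzyme, a membrane metalloprotease abundant in endothelium. Its counts ranged from 1323 to 2228 in con-named and from 987 to 1703 in HF-named libraries. In CPM the con-named libraries read 91.5, 108, 88.3, 93.9, 98.4 and 99.9, and the HF-named libraries 85.1, 71.5, 87.8, 75.6, 73.8 and 80.8. The groups did not overlap, and the closest libraries were con-named 3 and HF-named 3. The means were 96.6 ± 6.95 and 79.1 ± 6.54 CPM (SD, n = 6 each), 0.818 times the con-named level in HF-named libraries (log2 -0.29, SE 0.06). Ece1 exceeded Edn1 12.4 ± 1.74 times per length in con-named and 10.2 ± 2.08 times in HF-named libraries.

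Both Ednrb and Ece1 are expressed by endothelium, so endothelial markers were read beside them. The sum of 10 endothelial markers was 968 to 1329 CPM in con-named and 760 to 1128 CPM in HF-named libraries. HF-named libraries 1 (1023 CPM) and 3 (1128 CPM), the highest of their group for Ednrb and Ece1, were also its highest for these markers and for the atrial sum. Con-named library 2 was highest of its group for Ednrb, Ece1, these markers (1329 CPM) and the atrial sum. Other con-named libraries did not follow this order. Library 4, lowest for Ednrb (16.1 CPM), had a marker sum of 1141 CPM. Library 1, lowest for the markers (968 CPM), read 21.3 CPM for Ednrb. No endothelial marker was called higher and 3 of 10 were called lower, against 8.28% and 5.05% of all genes, with a median log2 fold change of -0.28. Vwf, an endothelial clotting protein, was 93.5 ± 14.3 and 45.3 ± 13.1 CPM (log2 -1.04, SE 0.15, edgeR adjusted p = 0.000792). Kdr (-0.46, adjusted p = 0.0453) and Emcn (-0.34, 0.0349) were the others, and Cdh5 read -0.34 (adjusted p = 0.0634). The count of 3 fell to 1 when con-named library 2, 4, 5 or 6 or HF-named library 2, 4, 5 or 6 was left out and rose to 7 without HF-named library 3 or with library totals. With DESeq2 Kdr lost its call (0.0694) and Cdh5 gained one (0.0378). Fibroblast markers were lower in 4 of 10, with Dcn, a matrix proteoglycan, at -0.35 (adjusted p = 0.00519) and Gsn, an actin-severing protein, at -0.29 (0.0133), and summed to 1369 to 1688 CPM and 1079 to 1349 CPM with no overlap. The part of endothelial cells or fibroblasts in the Ednrb and Ece1 differences was not tested.

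**Figure D3:**
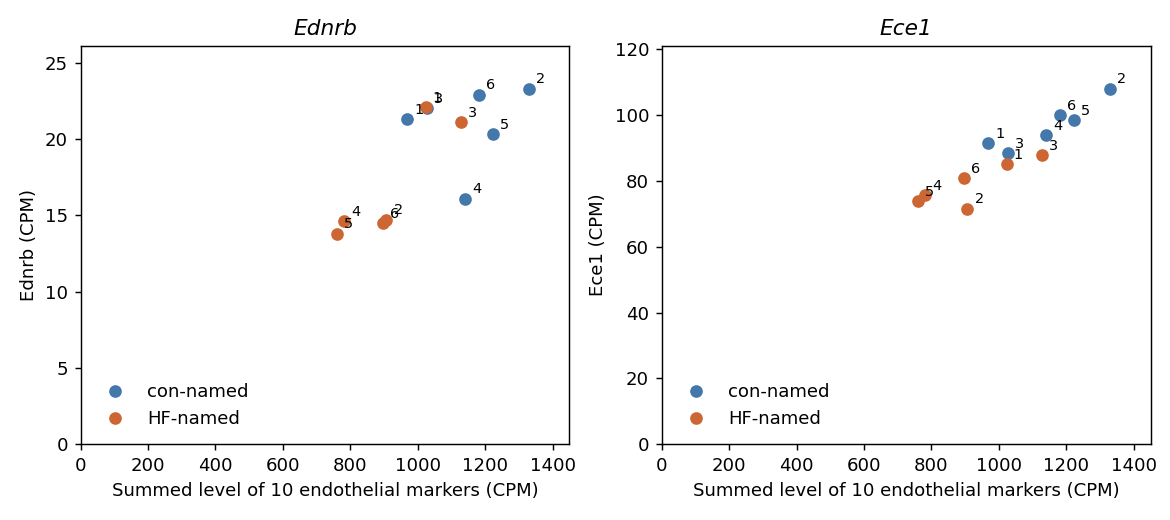
Ednrb (left) and Ece1 (right) in CPM against the summed level of 10 endothelial markers in CPM, for 6 con-named and 6 HF-named libraries labelled by number, axes from 0. HF-named libraries 1 and 3 lie within the con-named range of the marker sum, and the other HF-named libraries lie below it.

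Ece2 encodes a related converting enzyme that works at acidic pH and is found mainly in neural tissue. It had 2, 2, 0, 0, 3 and 2 counts in con-named libraries and 0, 2, 4, 2, 1 and 1 in HF-named libraries, 9 against 10 in all. Only HF-named library 3 exceeded 3 counts, and no fold change is given. The authors' deposited table lists log2 fold changes of 0.46 for Ednra, -0.29 for Ece1, -0.32 for Ednrb and 0.04 for Edn1.

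The order of levels over all 12 libraries does not use the group contrast. It was tested within libraries, on log2(FPKM + 0.01), with an exact two-sided sign-flip permutation test of each pair of neighbours, adjusted over 6 pairs. Over 12 libraries Ece1 was highest at 16.7 ± 2.97 FPKM, followed by Ednra at 5.95 ± 0.927, Ednrb at 4.46 ± 1.06, Edn1 at 1.51 ± 0.338 and Edn3 at 0.413 ± 0.29 (SD, n = 12). Ece1 exceeded Ednra by 1.48 on the log2 scale (SD 0.45), Ednrb exceeded Edn1 by 1.54 (SD 0.42) and Edn1 exceeded Edn3 by 2.22 (SD 1.28), each in 12 of 12 libraries with an exact adjusted p = 0.000732, from the smallest p the design allows, 0.000488. Ednra exceeded Ednrb by 0.44 (SD 0.51) in 11 of 12 libraries (exact adjusted p = 0.0083). In con-named libraries alone these neighbours differed by 0.05 (SD 0.15, exact adjusted p = 0.531), and in HF-named libraries alone by 0.83 (SD 0.42, exact adjusted p = 0.0375). With 6 libraries the smallest p the design allows is 0.0312, and 0.0375 comes from it. These values do not test 1 group against the other, and the difference between groups is a description. The other gaps also differed in size between groups, with Ece1 over Ednra at 1.85 (SD 0.14) in con-named and 1.11 (SD 0.3) in HF-named libraries and Edn1 over Edn3 at 3.14 (SD 0.97) and 1.29 (SD 0.8). Edn3 exceeded Ece2 in 12 of 12 libraries. Ece2 and Edn2 both lay near or below the floor, so no order is given for them.

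**Figure D4:**
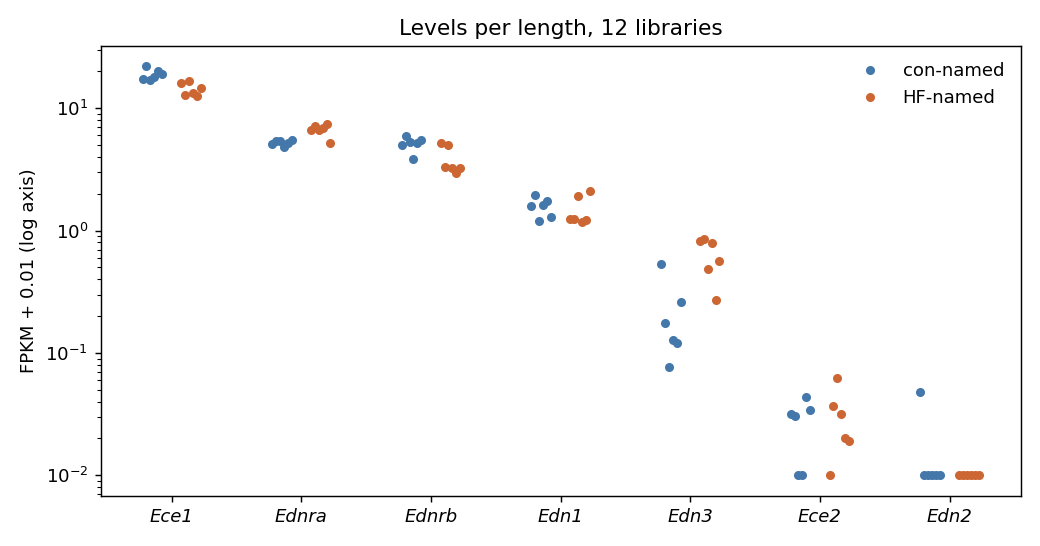
FPKM + 0.01 (log axis) of the 7 genes in each of the 12 libraries, ordered by mean level. Ece1 leads at 16.7 FPKM on average, the receptors follow, and Edn3 spans the widest range of the detected members.

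Levels of the 5 tested members were then correlated across the 12 libraries after each group's mean was taken out, in 10 pairs with an exact permutation within groups. Edn1 and Ednra had the strongest relation, with Pearson's r = -0.75 (exact permutation p = 0.00901, adjusted 0.0901) and Spearman's rho = -0.65 (exact permutation p = 0.0441, adjusted 0.309). It was -0.77 in each group alone and -0.50 without the 2 libraries farthest from the median. Ednrb and Ece1 gave r = 0.66 (exact permutation p = 0.0384, adjusted 0.192) and rho = 0.57 (exact permutation p = 0.0757, adjusted 0.309), and r = 0.66 without the 2 farthest. Within groups it was 0.34 in con-named and 0.85 in HF-named libraries, and the difference was not tested. No pair passed after adjustment. Edn3 had no r beyond 0.19 in size with any other member, and its low counts limit any such relation.

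The genes most like each member were taken from 12423 genes by the same correlation, as a description over 12 libraries. The leading gene was Arpc2 for Edn1 (r = 0.91), Stradb for Edn3 (0.90), Sema6b for Ednra (0.92), Prrt4 for Ednrb (0.92) and Mdfic for Ece1 (0.95). Next came Rtp4 and Tipin for Edn1, Capn2 and Guk1 for Edn3, Proser2 and Ccnt1 for Ednra, Pgbd1 and Supt20 for Ednrb and Mlkl and Mxra8 for Ece1, between 0.88 and 0.95. No other member was among these genes. As the highest of 12423 correlations over 12 libraries, values of this size can arise by chance, and no shared regulation is read from them. Edn3 had as few as 4 counts in a library.

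The genes around the endothelin system were read from 6 lists, each against the 8.28% of all genes called higher and the 5.05% called lower. Of 11 genes of endothelin processing and breakdown, 6 were tested, 1 was higher and 1 lower, with a median log2 fold change of 0.07. Mme, which encodes neprilysin, a protease that degrades endothelins, rose from 5.42 ± 0.908 CPM in con-named to 8.47 ± 1.86 CPM in HF-named libraries (log2 0.65, SE 0.16, edgeR adjusted p = 0.0131). Pcsk6, a furin-type protease, was lower (log2 -0.21, adjusted p = 0.0443) but lost its call with RLE size factors (0.0509) or without the filter (0.0565), and without con-named library 2, 3, 4 or 6 or HF-named library 1, 2, 5 or 6, where adjusted p lay between 0.0644 and 0.0958. Furin itself read 79.0 ± 6.01 and 89.0 ± 6.54 CPM (adjusted p = 0.0677).

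Receptor coupling covers the G proteins, kinases and regulators downstream of both receptors, and 33 of its 34 genes were tested. Of these, 8 were higher and 2 lower in HF-named libraries, with a median of 0.00. Arhgef12, a guanine nucleotide exchange factor driven by G12-family proteins, rose from 159 ± 10.7 to 209 ± 15.1 CPM (log2 0.40, SE 0.06, edgeR adjusted p = 0.000887). Rock2, a kinase that promotes smooth muscle contraction, rose from 121 ± 6.01 to 149 ± 13.8 CPM (log2 0.30, adjusted p = 0.00458). Gna13, a G protein of the G12 family, rose by 0.21 on the log2 scale (adjusted p = 0.0118). Gna12, Prkca, Prkce, Rock1 and Grk5 were the other higher genes, named after their values were seen. Gna12 lost its call without con-named library 5 (0.0509) or 6 (0.0619) or HF-named library 4 (0.0545), and without the filter (0.0526). Scaling by library totals left 3 higher and gave 6 lower, and under it Gna13 read 0.09 (adjusted p = 0.254), while Arhgef12, Rock2 and Grk5 stayed called.

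The lower genes of this list were Rgs2, which shortens Gq signals, from 45.0 ± 13.5 to 27.8 ± 9.04 CPM (log2 -0.69, edgeR adjusted p = 0.0365), and Arhgef1, another such exchange factor (log2 -0.22, adjusted p = 0.0242). Rgs2 lost its call without con-named library 1, 3 or 4 or HF-named library 1, 2, 3 or 6, where adjusted p lay between 0.0563 and 0.0823. Arhgef1 lost its call without HF-named library 2 (0.0513) or 4 (0.0528). The lower calls in the list numbered 1 without con-named library 3 or 4 or HF-named library 1, 4 or 6, 0 without HF-named library 2 and 4 without HF-named library 3.

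Of 14 regulators of Edn1 transcription, all tested, 2 were higher and 2 lower, with a median of 0.06. Ppara, a fatty-acid sensing nuclear receptor, rose from 19.7 ± 2.71 to 29.2 ± 6.26 CPM (log2 0.57, edgeR adjusted p = 0.00905). Gata2, an endothelial factor that binds the Edn1 promoter, fell from 20.5 ± 1.54 to 15.5 ± 2.84 CPM (log2 -0.41, adjusted p = 0.0183). Vezf1 was higher (0.19, adjusted p = 0.0233) but lost its call without con-named library 5 (0.0557) or HF-named library 2 (0.0571), 4 (0.0582) or 5 (0.0558), with library totals (0.239) and without the filter (0.064). Rela, a subunit of NF-kappaB, was lower (-0.19, adjusted p = 0.0333) and lost its call without con-named library 2, 3 or 5 or HF-named library 1, 2, 5 or 6, where adjusted p lay between 0.0521 and 0.0688, and without the filter (0.0514).

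The nitric oxide and prostacyclin arm, which opposes endothelin 1 in vessels, had 9 of 11 genes tested, 1 higher and 4 lower, with a median of -0.23. Prkg1, the cyclic GMP-dependent kinase that relaxes smooth muscle, rose from 5.14 ± 0.156 to 9.24 ± 1.54 CPM (log2 0.84, SE 0.11, edgeR adjusted p = 0.000536), with ranges of 4.96 to 5.37 and 7.25 to 10.8. Ptgs1, a cyclooxygenase upstream of prostacyclin, fell from 9.56 ± 0.907 to 7.02 ± 0.476 CPM (log2 -0.45, adjusted p = 0.00332), and Adm, the vasodilator adrenomedullin, from 7 ± 0.912 to 5.30 ± 0.508 CPM (log2 -0.40, adjusted p = 0.0175). Nos3, the endothelial nitric oxide synthase, was also lower (-0.34, adjusted p = 0.026) and so was Nos2 (-0.53, adjusted p = 0.0401). Nos3 lost its call without con-named library 2 or 5 or HF-named library 4, 5 or 6 (0.0505 to 0.0612). Nos2 lost its call without con-named library 2, 3, 4 or 5 or HF-named library 2, 4, 5 or 6 (0.0589 to 0.0887). The lower count was 2 without con-named library 2 or 5 or HF-named library 4, 5 or 6. The part of the endothelial markers given with Ednrb in these differences was not tested.

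Of 12 genes that endothelin 1 induces in heart cells, all tested, 1 was higher and none lower, with a median of -0.02. Myc, a growth regulator, rose from 3.85 ± 0.828 to 6.17 ± 1.55 CPM (log2 0.69, edgeR adjusted p = 0.0186). The natriuretic peptide gene Nppa, another target, read 87.7 ± 23.3 and 76.3 ± 65.7 CPM (log2 -0.21, adjusted p = 0.776). Nppb, a second natriuretic peptide gene, read 126 ± 32.7 and 179 ± 55.6 CPM (log2 0.50, adjusted p = 0.0932). Acta1 read 0.44 (0.259) and Egr1 -0.34 (0.351). At an unadjusted edgeR p under 0.05, 2 genes of the list were higher and 0 lower. Leaving out con-named library 2 or HF-named library 6 gave 2 higher genes. Of 10 neural crest partners of endothelin 3, 5 were tested and 0 were called by edgeR, limma-voom or DESeq2, with 0 at an unadjusted edgeR p under 0.05 and a median log2 fold change of -0.08. Kit, a receptor of melanocyte precursors and mast cells, had the smallest p of them (log2 -0.31, adjusted p = 0.339).

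**Figure D5:**
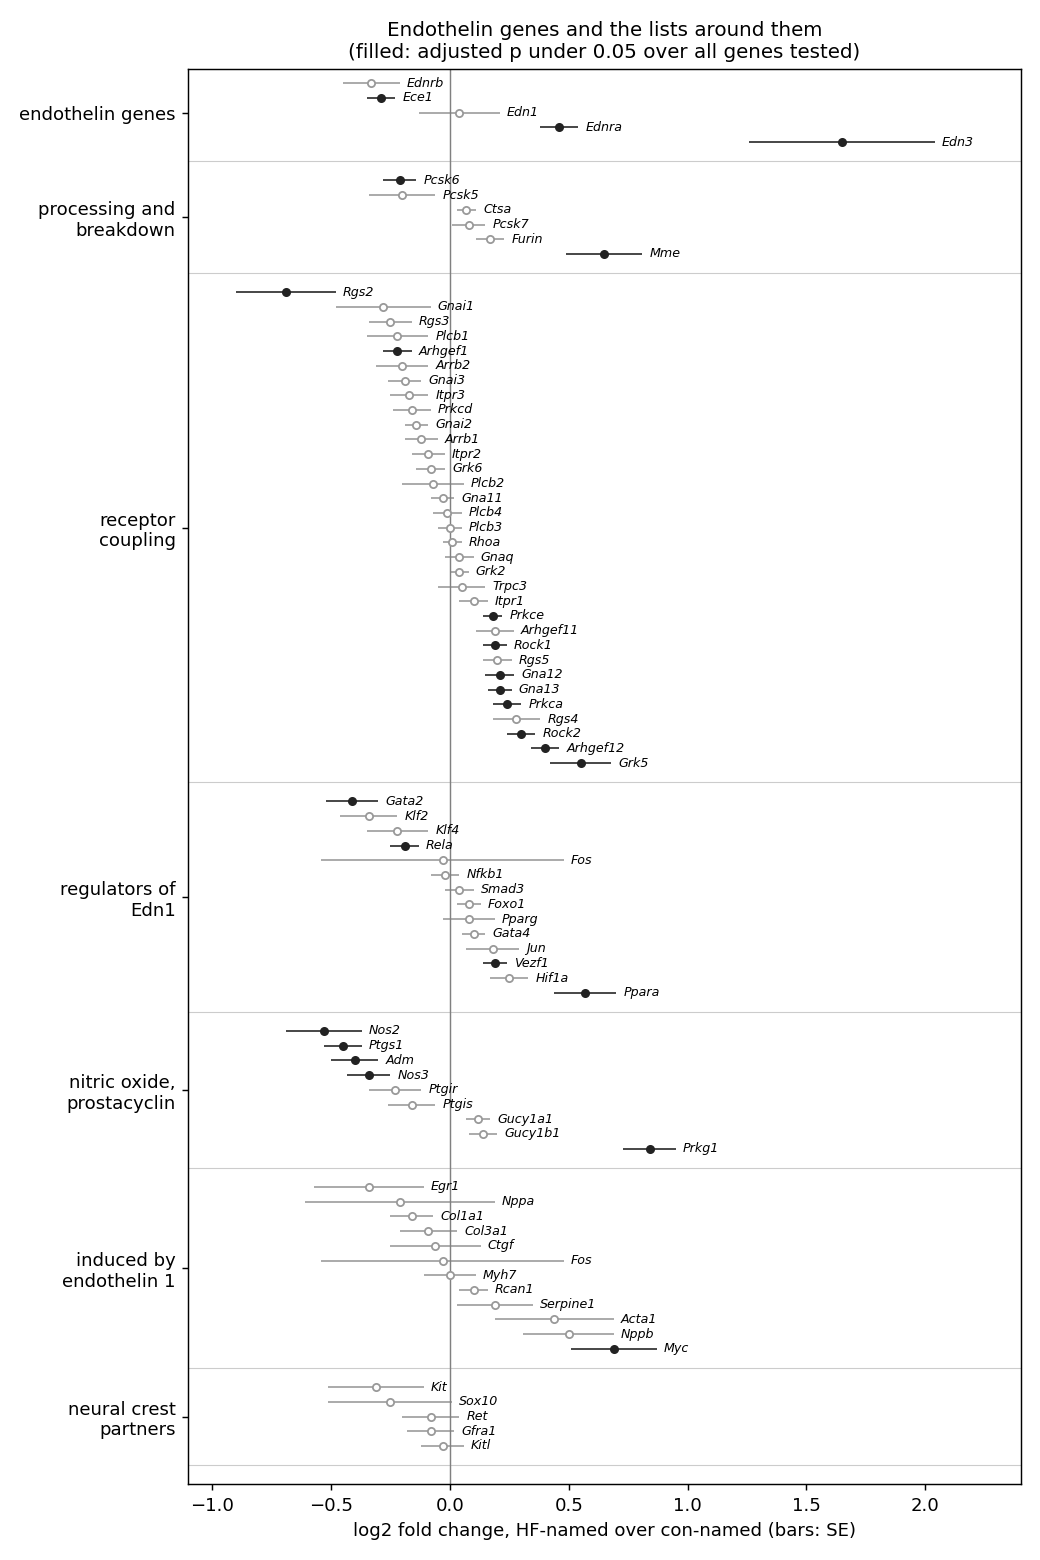
log2 fold change, HF-named over con-named (x axis, bars are SE), for the 5 tested endothelin genes and every tested gene of 6 lists around them, 1 row per gene. Filled points had an edgeR adjusted p under 0.05 over all genes. Edn3 has the largest change shown, at 1.65, and in the nitric oxide and prostacyclin list 4 genes lie below 0 and Prkg1 above it among those filled.

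The remaining marker lists describe the rest of the tissue, and their part in the differences of the endothelin genes was not tested. Each count of calls below stands against 8.28% of all genes called higher and 5.05% called lower. Of 10 cardiomyocyte markers 2 were higher and 4 lower, with Tnnt2, a thin-filament troponin, lower (log2 -0.23, edgeR adjusted p = 0.0478) and Myh6, a myosin heavy chain, at 0.13 (0.243). Tnnt2 lost its call without the filter (0.182), with a replicate block (0.128) and without any library except con-named library 2 or HF-named library 5. The lower count was 0 without the filter, and 2 without any library except con-named library 2 or HF-named library 2 or 5. The higher count was 1 without the filter or with library totals, and without any library except con-named library 1 or HF-named library 3 or 6.

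Of 6 conduction system markers 1 was higher and 2 lower, among them Irx3, a homeobox factor (log2 -0.50, edgeR adjusted p = 0.00696), while Tbx3 read -0.15 (0.456). Their sums did not overlap, at 61.9 to 77.4 CPM in con-named and 46.3 to 58.9 CPM in HF-named libraries. Irx3 was the largest part of them, at 34.5 ± 3.26 and 24.5 ± 4.84 CPM. The higher count was 0 without HF-named library 2 or 4 and with library totals. The lower count was 1 without con-named library 4 or 5, HF-named library 1, 2 or 4, or the filter. Of 10 macrophage markers 3 were lower, among them Lyz2 (-0.39, 0.015) and Csf1r (-0.35, 0.0335). That count was 1 without con-named library 2, 4, 5 or 6 or HF-named library 1, 2, 4 or 5, and 6 with library totals. Csf1r lost its call in each of those 8 fits (0.053 to 0.0781).

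Of 5 blood markers 1 was higher, while Hba-a1 read 0.33 (edgeR adjusted p = 0.135) and Hbb-bs 0.34 (0.161). That count was 0 with library totals or limma-voom and without con-named library 2, 3, 5 or 6 or HF-named library 2, 3 or 5, and 3 without HF-named library 1. Of 5 lymphatic endothelial markers 1 was lower, while Prox1 read 0.27 (0.127) and Flt4 -0.25 (0.0932). That count was 0 without con-named library 5, 2 without con-named library 1 or 2 or HF-named library 1 and with DESeq2, and 3 with library totals. Without con-named library 3, 1 lymphatic marker was higher. The edgeR test made 0 calls, and 0 genes had an unadjusted p under 0.05, among 4 atrial markers (Kcna5 at -0.09, adjusted p = 0.66), 2 mast cell markers (Hdc at 0.08, 0.845) and the only tested gene of the neuron (Dbh, -0.07, 0.829), mesothelial (Wt1, -0.16, 0.624) and adipocyte (Fabp4, -0.19, 0.199) lists. Limma-voom and DESeq2 made 0 calls there too. Exceptions were 1 mast cell gene higher without the filter and 1 adipocyte gene lower without HF-named library 3. The glial gene Cnp read -0.02 (0.916), and Mitf 0.03 (0.812).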

How the data were processed

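The 12 ventricle libraries were made from poly-A-selected RNA, per the labels' protocols. A table, as deposited by the authors, holds counts per gene, not normalized, and FPKM values, which equalled count over library total and 1 length per gene for 100% of values (within 1%). Per the submitters' processing notes, the build was mm10 and the tools were HTSeq 0.9.1, HISAT2 2.0.5 and cutadapt 1.15, with no role or order stated. Annotation release and strand setting: not given in the sources used here. A further table that the authors deposited, of their own comparison, holds group means of scaled counts (a signal), log2 fold changes and p-values, and its log2 fold changes are quoted where named.

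Groups follow the library names, which the titles and treatments of the same samples contradict. Genes passing filterByExpr were scaled by TMM and given a quasi-likelihood test in edgeR 4.0.16 (with limma 3.58.1, DESeq2 1.42.0 and R 4.3.3), two-sided, group as the only term, with Benjamini-Hochberg adjustment over 15114 genes at 0.05. SE is that of the log2 fold change. The fitting script was tested on simulated data. Likeness and correlations used log2 CPM (prior count 2). GENCODE M21 on GRCm38 gave positions and sequences, and its exon lengths equalled those implied by the FPKM for all 7 genes and for 31979 of 32909 features.

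The members and lists were chosen with earlier results of these data known. Genes named were the 7 members, from pathway lists the 3 smallest p where 3 or more were called and else the smallest, the 2 most abundant genes of each marker list, and the 3 genes most like each tested member. Other genes were named after their values were seen. The text names every gene this rule gave from the 16 marker lists, except 3 that did not pass the filter on low counts and 1 that is not reported here.

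No 2 libraries of a group were duplicates, since the chi-square per degree of freedom over genes was 4.02 to 16.3 in 30 pairs. Alternatives were other scalings, filters and tools, a replicate block, FPKM with pseudocounts of 0.1 and 1, and each library left out.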

Additional observations from a re-analysis of the deposited data

Results flagged for a closer look

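The Ednra to Ednrb ratio in con-named library 4 was 1.25, whereas the nearest of the other con-named libraries was at 1.03. The gap was 0.634 of the group's range, just over what Dixon's test allows for 6 samples at 95%. This was the only such value among 16 groups of values looked at, and chance flags about 1 in 20 groups. On the log2 scale the ratio in con-named library 4 was 0.325, with 0.046 the nearest and -0.143 the lowest of the group. That log2 gap lay under what the test allows, so the flag depends on the scale. In that library Ednrb was the lowest of its group at 16.1 CPM, and so was Ednra at 25.9 CPM.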

How the results depend on the processing

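Over 21 alternatives Edn3 ranged from 0.42 to 2.20, Ednra from 0.29 to 0.53, Ece1 from -0.40 to -0.26, Ednrb from -0.44 to -0.28 and Edn1 from -0.10 to 0.10 in log2 fold change, HF-named over con-named. Since the family was chosen on this contrast, these ranges describe the values and are no evidence that a difference is stable. Ednrb was -0.43 with library totals, and over the fits that left out 1 library it ranged from -0.42 to -0.28. Ece1 was -0.40 with library totals and with log2(FPKM + 0.1), and log2(FPKM + 1) gave 0.42 for Edn3 and 0.29 for Ednra, a scale that compresses low genes. The count of called genes was 3065 with library totals (483 higher, 2582 lower). With log2(FPKM + 0.1) there were 359 higher and 2088 lower genes, and with log2(FPKM + 1) 361 and 2095. Leaving out 1 library gave 1355 to 2550 called genes, 836 to 1581 higher and 500 to 969 lower, with the 500 lower genes found without HF-named library 4. The cause was not tested.

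A replicate block gave 1131 called genes, 748 higher and 383 lower, with Edn3 at 1.75 and no other side of the threshold for the 5 tested members. Most lists of lost calls above leave this block out. With it, edgeR adjusted p rose past 0.05 for Tnnt2 (0.128), Rela (0.0904), Emcn (0.084), Kdr (0.0751), Vezf1 (0.0736), Arhgef1 (0.0633), Csf1r (0.0584), Nos3 (0.0547) and Prkce (0.0536). Lower calls numbered 1 among endothelial, 1 among macrophage and 0 among cardiomyocyte markers, and higher calls 0 among blood markers. No label says whether the shared replicate numbers pair the samples. With group means taken out, same-numbered libraries correlated between -0.1608 and 0.09, and only numbers 4 and 6 correlated best with their own. Such correlations cannot decide whether same-numbered samples share a litter or a day. Ednra and Ednrb differed by 0.05 in con-named libraries alone (exact adjusted p = 0.531). Ece2 and Edn2 differed by 0.82 in con-named (exact adjusted p = 0.3) and 1.35 in HF-named libraries alone (exact adjusted p = 0.0625), against 1.09 over all 12, at levels the pseudocount sets. Depth limits Edn2 and Ece2, which stayed near or below 3 counts in each library, and Edn3, which had 4 to 39 counts in con-named libraries. For Ece2 the exon bases shared with Gm49333 may also limit the count, which was not tested.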
